A study of Mus musculus with 24 samples.

Results

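Collagen genes were examined in 24 mouse tumours taken from the cortex, with 1 single-colour RNA array per tumour. Members were all genes whose probe sets carry 1 gene symbol of the form Col, number, a, number, and each was represented by the probe set with the highest mean over the 24 arrays. There were 42 such genes among 17097 measured: 11 fibrillar collagens, 6 chains of type IV collagen of basement membranes, and 25 others. The tumours arose from cells that expressed 1 of 3 class genes: 6 tumours express RAB3A, 9 express BC74C and 9 express ZNF668. A further label calls 11 tumours ependymoma, 4 HGG, 5 TUMOR and 4 UNKNOWN; the labels do not spell out HGG, and BC74C is not an approved gene symbol. RAB3A has 2 ependymoma and 0 HGG tumours, BC74C 6 and 2, and ZNF668 3 and 2. No untreated brain or vector control was analysed here. The labels give neither strain nor age and do not say whether tumours came from separate animals, so the p-values measure the spread between these tumours only. Replicate numbers follow the order of deposit and pair nothing.

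Collagens are triple helices of alpha chains, and each alpha chain has its own gene. Fibrillar types (I, II, III, V, XI and relatives) build banded fibres; type IV forms the sheet-like network of basement membranes; FACIT types such as IX decorate fibres; type VI forms beaded filaments; others are short-chain, transmembrane or endostatin-bearing. Normal brain tissue holds little fibrillar collagen outside its vessels and meninges, and type IV collagen of vessel walls is its main collagen scaffold. Some chains are needed together: some type IV protomers combine alpha 1 with alpha 2, and some combine alpha 5 with alpha 6. The genes of each such pair lie head to head.

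The values are log2 expression values, and a difference of 1 on this scale is a doubling or halving. Values of different genes come from different probes, so levels are compared between tumours and never between genes. Of the 42 members, 34 had a mean log2 value of at least 3.76, the 30th percentile over the probe sets, and entered the tests: 9 fibrillar, 5 type IV and 20 others. The 8 that did not were Col1a2, Col24a1, Col4a3, Col10a1, Col12a1, Col17a1, Col6a4 and Col6a5. Among these, Col1a2, Col12a1, Col17a1 and Col6a5 were below that level in all 24 tumours, so the partner chain of Col1a1 in type I collagen was never measured above it. Col1a2 has only 1 probe set here, so little RNA and a probe set that does not respond cannot be told apart. Of the further probe sets of members, 16 also had means above 3.76, and 14 of these correlated with the chosen one over the tumours at r above 0.8; the others belonged to Col23a1 and Col25a1, where r was as low as 0.42.

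The promoter sequences of 4 members are shown because the results turn on them: the chain pair Col4a5 and Col4a6 moved together across tumours, Col9a2 differed between class genes, and Col3a1 had among the widest ranges. Each is the 250 bases before the transcription start, 5′ to 3′, from RefSeq on mouse build GRCm38.p6. Capitals mark 3 promoter motifs searched on both strands: the TATA box as TATAAA, the CCAAT box as its name spells it, and the GC box as GGGCGG. Matches of different motifs can overlap at their ends.
Col4a5, chrX:141475169-141475418, plus strand: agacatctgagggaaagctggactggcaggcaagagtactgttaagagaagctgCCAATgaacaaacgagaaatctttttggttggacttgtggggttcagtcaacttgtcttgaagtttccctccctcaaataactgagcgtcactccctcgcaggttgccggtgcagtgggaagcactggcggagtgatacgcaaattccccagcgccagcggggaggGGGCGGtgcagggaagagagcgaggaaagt
Col4a6, chrX:141474077-141474326, minus strand: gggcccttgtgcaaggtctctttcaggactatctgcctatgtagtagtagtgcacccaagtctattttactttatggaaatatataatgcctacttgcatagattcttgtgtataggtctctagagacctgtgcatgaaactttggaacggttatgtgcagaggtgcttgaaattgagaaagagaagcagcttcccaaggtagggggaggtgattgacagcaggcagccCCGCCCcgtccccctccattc
Col9a2, chr4:121039316-121039565, plus strand: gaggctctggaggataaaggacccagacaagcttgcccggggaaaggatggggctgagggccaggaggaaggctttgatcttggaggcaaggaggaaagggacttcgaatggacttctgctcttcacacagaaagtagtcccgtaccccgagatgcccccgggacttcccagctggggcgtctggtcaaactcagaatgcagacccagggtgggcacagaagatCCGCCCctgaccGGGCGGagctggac
Col3a1, chr1:45311288-45311537, plus strand: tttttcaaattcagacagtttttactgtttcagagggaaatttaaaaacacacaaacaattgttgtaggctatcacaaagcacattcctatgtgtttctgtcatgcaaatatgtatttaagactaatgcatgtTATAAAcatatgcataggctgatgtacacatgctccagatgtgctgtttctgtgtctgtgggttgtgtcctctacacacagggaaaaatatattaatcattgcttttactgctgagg

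The Col4a5 and Col4a6 starts lie 1343 bases apart on opposite strands of chromosome X, and both windows hold a GGGCGG box. Only Col3a1 of these 4 has TATAAA in its window, and its GC content is 35.2% against 60.4% for Col9a2. RefSeq windows were matched for 33 of the 42 members, 36 windows in all. Of these windows, 58.3% held GGGCGG against 32.7% of all 32851 windows; CCAAT was in 36.1% against 33.8%, and TATAAA in 13.9% against 12.4%. These are matches of letters only. The Col4a1 and Col4a2 starts on chromosome 8 lie only 21 bases apart on opposite strands.

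How far did each collagen vary from tumour to tumour? The widest spread among the members was that of Col19a1, a FACIT collagen, whose values ran from 3.29 in BC74C replicate 2 to 11.16 in RAB3A replicate 3, with a median of 5.68 and an SD of 1.92. Col4a5, a type IV chain, ran from 4.43 to 10.46 with a median of 7.45 (SD 1.53). Col3a1, the chain of fibrillar type III collagen, ran from 4.27 in BC74C replicate 9 to 9.78 in RAB3A replicate 5 with a median of 6.38 (SD 1.52). The next widest were Col8a1, a short-chain collagen of vessel walls, from 4.10 to 9.34, and Col25a1, a transmembrane collagen made by neurons, from 4.42 to 9.28. A further Col25a1 probe set, with a mean of 3.96, ran only from 3.50 to 4.25. At the other end, Col7a1, the anchoring fibril collagen, kept between 4.07 and 5.28 in all 24 tumours.

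Members were more variable than most genes on these arrays. An SD in the top 10% of the 13218 genes tested (above 1.02) was found for 13 of 34 members, against 10% of all genes, and the median SD was 0.91 against 0.44. The 13 were 3 of 9 fibrillar, 2 of 5 type IV and 8 of 20 other members. The distance between lowest and highest tumour was over 4 for 12 of 34 members, against 9.39% of all genes tested. These are descriptions, with no test, of members that passed the filter on dim genes; the 8 members left out were dim and nearly flat, apart from Col24a1, which reached 5.50 in RAB3A replicate 3.

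**Figure D1:**
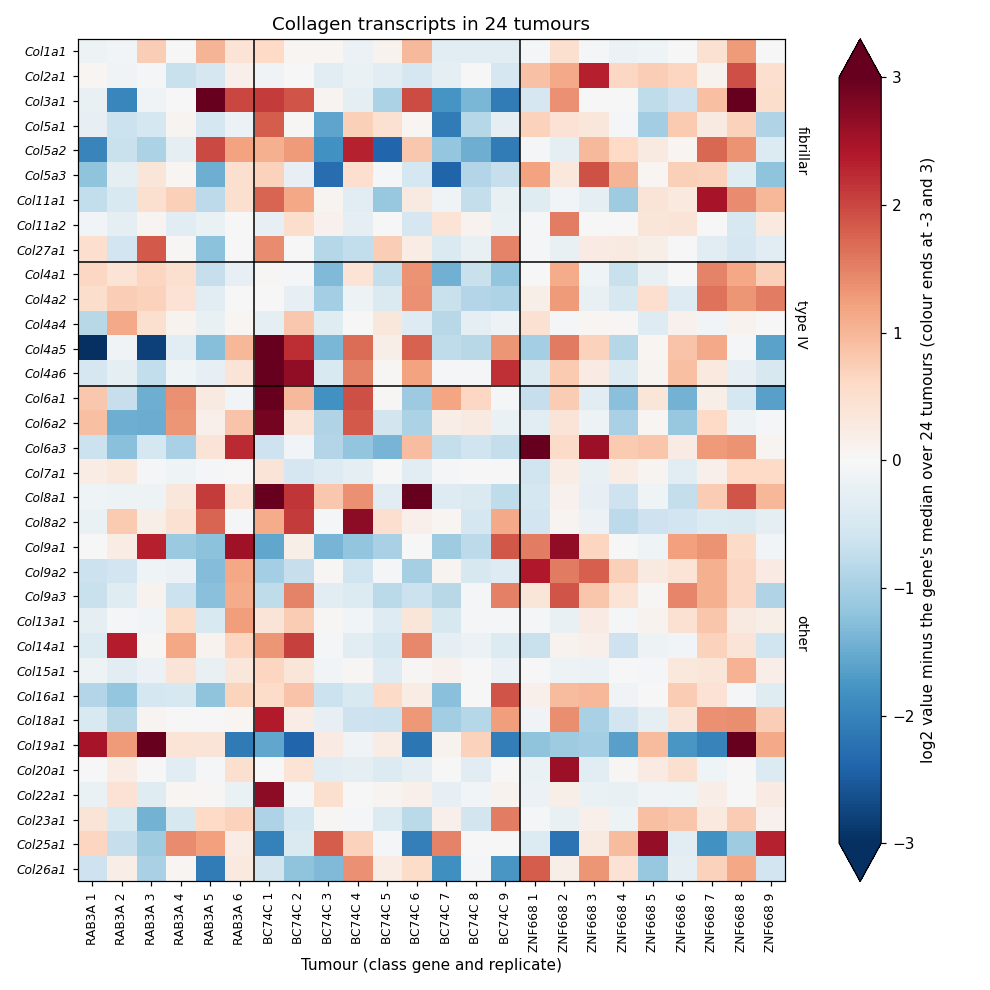
Each column is a tumour, ordered by class gene, and each row a tested collagen (fibrillar, type IV and other from top to bottom); the colour is the log2 value minus that gene's median over the 24 tumours. Col2a1, Col9a2 and Col6a3 are raised mainly on the ZNF668 side, while Col4a5, Col4a6, Col6a1, Col6a2 and Col8a1 peak together in BC74C replicate 1.

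Single tumours held many of the extremes. BC74C replicate 1, labelled ependymoma, was the highest of the 24 tumours for 8 of 34 members: Col4a5, Col4a6, Col5a1, Col18a1, Col22a1, Col6a1, Col6a2 and Col8a1. It was the highest for 6.88% of all genes tested. BC74C replicate 7, labelled HGG, was the lowest for 7 members, among them Col4a1, Col4a4 and Col5a1, and for 2.91% of all genes. ZNF668 replicate 2, also labelled HGG, was the highest for Col9a1, Col9a3, Col11a2 and Col20a1, and for 3.85% of all genes. Without this tumour the Col11a2 mean would lie below the filter level, so Col11a2 counts here only because the tumour was high. ZNF668 replicate 9 held most extremes over all genes, being highest for 10.6% and lowest for 11.9%, yet it was the highest for 1 member (Col7a1) and the lowest for none.

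Among the 5 type IV chains tested, Col4a1, Col4a2, Col4a5 and Col4a6 fell into separate pairs. Relations of Col4a4 are not described here, and Col4a3 did not enter the tests. Col4a1 and Col4a2, which encode the chains common to all basement membranes, varied together over the 24 tumours, with r = 0.92 and rho = 0.91 (permutation p = 1e-05 for both, the smallest that 100000 permutations can give). The adjusted p over the 12 relations computed was 4e-05 for r and 6e-05 for rho. Leaving out the 2 tumours farthest from the Col4a1 median gave r = 0.91. Titles start with elw for 18 tumours, where r was 0.89, and with mmr for 6, where it was 0.97 (exact permutation adjusted p = 0.05). The title prefix may mark a batch, but the labels do not say what it is.

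Col4a5 and Col4a6, another head-to-head pair, also ran together, with r = 0.84 and rho = 0.95 over the 24 tumours. This relation was chosen after its value was seen and has no test. Col4a5 spanned 6.09 to 10.46 in BC74C tumours (median 8.77), 4.43 to 8.44 in RAB3A (median 6.66) and 5.85 to 9.01 in ZNF668 (median 7.52). Col4a6 was at or above 6.07 only in 5 BC74C tumours, replicates 1, 2, 4, 6 and 9, where Col4a5 was at or above 8.77. The pairs did not follow each other: r was 0.15 between Col4a1 and Col4a5 and -0.01 between Col4a1 and Col4a6.

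**Figure D2:**
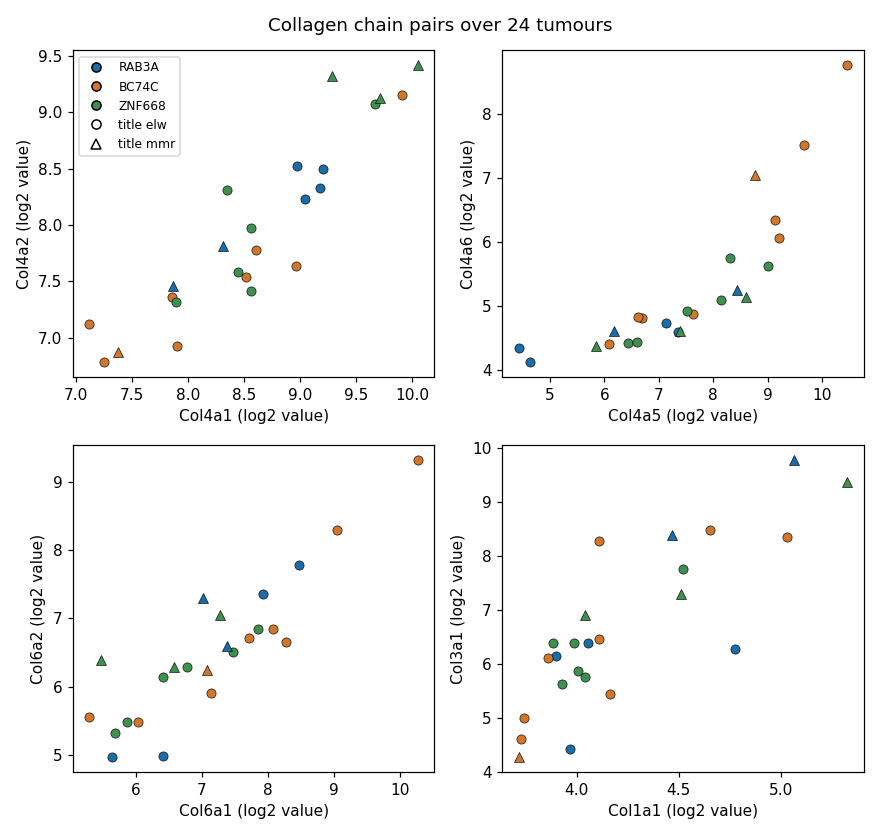
Each point is 1 of 24 tumours, with the log2 value of a collagen chain on each axis, coloured by class gene and shaped by title prefix. Col4a1 and Col4a2 lie on a line (r = 0.92), as do Col6a1 and Col6a2 (r = 0.88); Col4a6 leaves its low range of about 4.12 to 5.75 only where Col4a5 is high, and Col3a1 rises with the dim Col1a1 (r = 0.83).

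Among the fibrillar collagens, Col1a1 and Col3a1, which are co-expressed by fibroblasts and mural cells, varied together with r = 0.83 and rho = 0.79 (permutation adjusted p = 4e-05 and 8e-05). The relation was r = 0.73 without the 2 tumours farthest from the Col1a1 median, 0.70 in elw tumours and 0.92 in mmr tumours. Col1a1 was dim throughout, between 3.72 and 5.32, and was highest in ZNF668 replicate 8, RAB3A replicate 5 and BC74C replicate 6. Those 3 tumours had Col3a1 values of 9.36, 9.78 and 8.34. Col1a1 against Col1a2 gave r = 0.41 (permutation adjusted p = 0.0545), with Col1a2 between 2.75 and 3.39. Col5a1 and Col5a2, chains of the type V fibre that nucleates type I fibres, gave r = 0.44 and rho = 0.43 (permutation adjusted p = 0.0426 and 0.0479), but r = 0.38 without the 2 farthest tumours (permutation adjusted p = 0.105). The cartilage-type pair Col2a1 and Col11a1 gave r = 0.09 (permutation adjusted p = 0.665).

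The type VI chains did not all vary together. Col6a1 and Col6a2, neighbouring genes, gave r = 0.88 and rho = 0.83 (permutation adjusted p = 4e-05 and 6e-05), with r = 0.78 without the 2 farthest tumours and 0.94 in elw tumours but 0.40 in mmr tumours. Col6a3, which encodes the third chain of the classical type VI molecule, gave r = -0.27 with Col6a1 (a description, with no test). Over the 21 pairs of tested members of 1 collagen type the median r was 0.20, and 5 pairs (23.8%) exceeded 0.7. Over all 561 pairs of tested members the median was 0.12 and 2.14% exceeded 0.7, close to the 2.18% of pairs of all genes tested. All these correlations share the same tumours and the same arrays.

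Relations with single marker genes of cells that make collagen had r of 0.66 or less. Col1a1 with Lum, a proteoglycan gene of fibroblasts, gave r = 0.66 and rho = 0.56 (permutation adjusted p = 0.00159 and 0.0157), and r = 0.46 without the 2 farthest tumours (permutation adjusted p = 0.0556). Col4a1 gave r = 0.50 and rho = 0.47 with Pdgfrb, a mural cell receptor (permutation adjusted p = 0.0259 and 0.0351). With the endothelial gene Pecam1 it gave r = 0.44 and rho = 0.50 (permutation adjusted p = 0.0426 and 0.0267). Col1a1 with Col4a1 gave r = 0.50 and rho = 0.45 (permutation adjusted p = 0.0259 and 0.0415). Col1a1 and the neuronal gene Snap25 ran in opposite directions, with r = -0.49 and rho = -0.51 (permutation adjusted p = 0.0274 and 0.0264), which was -0.79 in elw and -0.03 in mmr tumours. Serpinh1, which encodes the collagen chaperone HSP47, was not detectably related to Col1a1 (r = 0.15, permutation adjusted p = 0.532). In whole tumours, fewer cells of a type and less RNA per cell cannot be told apart.

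Which collagens differed between the class genes? Between BC74C and ZNF668 tumours, 2 of 34 members passed the test (limma over all genes tested, Benjamini-Hochberg adjusted p under 0.05), both lower in BC74C, against 0.303% of all genes tested in either direction and 0.219% lower. They were Col2a1, the chain of type II collagen, and Col9a2, a chain of the type IX collagen that coats type II fibres. For both, no BC74C value reached any ZNF668 value, which was so for 0.0757% of all genes tested. Col2a1 was tested only because of its level in ZNF668 tumours, so the call that does not rest on the filter is that of Col9a2. At an unadjusted p under 0.05 there were 9 members, or 26.5% of 34 against 6.88% of all genes tested. They were 7 lower and 2 higher, against 3.61% and 3.27% of all genes. The median difference over the 34 members was -0.22, and over all genes tested 0.00474.

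Col2a1 was at 3.28 to 3.81 in the 9 BC74C tumours (median 3.50), 3.14 to 3.94 in the 6 RAB3A tumours (median 3.71), and 3.90 to 6.12 in the 9 ZNF668 tumours (median 4.54). ZNF668 replicates 3 and 8 were highest, at 6.12 and 5.73, and replicate 7 was lowest, at 3.90. The BC74C mean was 3.54 ± 0.19 (SD, n = 9), against a ZNF668 mean of 4.78 ± 0.71 (SD, n = 9). Of the BC74C values 7 of 9, and their mean, were below 3.76, the level under which genes were left out, and all 9 ZNF668 values were above it. Col2a1 thus entered the test only through the ZNF668 tumours, and a gene that enters in that way has to differ between the groups. The log2 difference as measured was -1.24 (SE 0.22, limma adjusted p = 0.0103); no fold is given, since the BC74C side was mostly under that level. Without a filter the adjusted p was 0.0105 (limma).

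Col9a2 was at 3.86 to 4.98 in BC74C tumours (median 4.41), 3.59 to 6.05 in RAB3A (median 4.50) and 5.13 to 7.28 in ZNF668 (median 5.61). The highest were ZNF668 replicates 1, 3 and 2, at 7.28, 6.67 and 6.45; RAB3A replicate 6, at 6.05, stood above the other RAB3A tumours, which reached 4.76. The BC74C mean was 4.43 ± 0.42 (SD, n = 9), against a ZNF668 mean of 5.89 ± 0.76 (SD, n = 9). Col9a2 fell by 1.46 in BC74C relative to ZNF668 (SE 0.30, limma adjusted p = 0.0296), a 2.75-fold difference. All 9 values of either group were above 3.76. The Col9a2 call was lost on leaving out any 1 of BC74C replicates 1, 2, 4, 6 and 8. The same held for ZNF668 replicates 1, 2, 3 and 7, and the limma adjusted p reached 0.0867. Col2a1 kept its call without each of the 24 tumours in turn. Since it entered the test only through the ZNF668 tumours, this does not make it the firmer result.

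Within elw tumours the differences were -1.27 for Col2a1 (limma adjusted p = 0.0112) and -1.65 for Col9a2 (limma adjusted p = 0.0207), and the mmr tumours hold only 1 BC74C tumour, so no such value was computed there. Among ependymoma-labelled tumours alone (6 BC74C against 3 ZNF668) they were -0.91 and -1.02, and neither passed (limma adjusted p = 0.331 and 0.951). The other type IX chains were not called. Col9a1 was 4.67 to 8.09 in BC74C tumours (median 5.25) and 6.10 to 8.90 in ZNF668 (median 6.88), a difference of -1.42 (limma adjusted p = 0.467). Col9a3 was 6.87 to 9.22 in BC74C and 6.81 to 9.60 in ZNF668, so the groups overlapped over nearly their whole range.

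**Figure D3:**
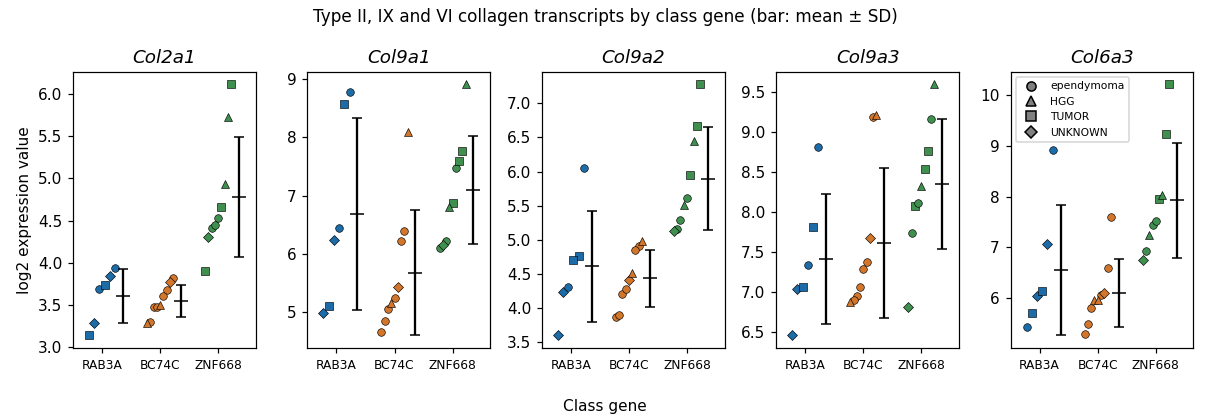
Log2 values of Col2a1, the 3 type IX chains and Col6a3 in every tumour, by class gene; the symbol gives the tumour label, and the bar the mean ± SD. For Col2a1 and Col9a2 every BC74C tumour lies below every ZNF668 tumour (3.81 against 3.90, and 4.98 against 5.13, at the nearest points); the vertical scales differ between panels.

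Col6a3 showed the largest of the differences between BC74C and ZNF668, without passing the test. It was 5.28 to 7.59 in BC74C tumours (median 5.96), 5.42 to 8.91 in RAB3A (median 6.08) and 6.75 to 10.22 in ZNF668 (median 7.51). Only BC74C replicate 6, at 7.59, exceeded the lowest ZNF668 tumours, replicate 9 at 6.75 among them. The difference was -1.83 (SE 0.46, limma adjusted p = 0.112). It passed in 2 of 37 alternatives, at -2.23 with arrays weighted by quality (limma adjusted p = 0.0191) and without RAB3A replicate 6 (limma adjusted p = 0.0400). That RAB3A tumour enters this comparison only through the shared estimate of the spread. Among ependymoma-labelled tumours the difference was -1.16 (limma adjusted p = 0.964). With title prefix as a block it was -1.74 (limma adjusted p = 0.203). Across tumours Col6a3 ran with Col9a2 (r = 0.75) and with Col2a1 (r = 0.65), and Col2a1 with Col9a2 (r = 0.70), as descriptions of values already used above.

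Markers of oligodendrocyte progenitors varied with these genes. All 6 tested genes of that list had lower means in BC74C than in ZNF668 (median difference -0.99; 3 of 6 at an unadjusted p under 0.05, none called), and the list's mean level was 7.80 to 9.20 in BC74C and 8.08 to 10.13 in ZNF668. Over the 24 tumours the list mean gave r = 0.84 with Col9a1, 0.77 with Col9a3, 0.67 with Col9a2, 0.59 with Col2a1 and 0.53 with Col6a3, given as descriptions. With the list mean as a covariate, an alternative added after the data were seen, Col2a1 differed by -1.0 (limma adjusted p = 0.0830). Col9a2 differed by -1.01 (limma adjusted p = 0.195), so neither passed. In that fit 34 of all genes tested passed, against 40 without the covariate. The list's genes had lower means in BC74C, so the list and the class gene cannot be told apart in this fit. With the mean of the mature neuron list as a covariate both passed (limma adjusted p = 0.0118 and 0.0400). All 13 neuron genes had higher means in BC74C (median difference 0.68). The part of either cell type in the collagen differences was not tested. All 14 endothelial genes had lower means in BC74C (median difference -0.43), and the list's part in these results was not tested. Of the cartilage and bone markers, 5 of 10 passed the filter; 3 had higher and 2 lower means in BC74C (median difference 0.06), from Acan at -0.17 to Hapln1 at 1.01, and none was called.

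Among members with higher means in BC74C than in ZNF668, none was called. Col8a2, a short-chain collagen, was 3.77 to 7.0 in BC74C and 3.52 to 4.39 in ZNF668, and 8 of 9 BC74C tumours exceeded the ZNF668 mean of 3.89. The difference was 1.22 (SE 0.34, limma adjusted p = 0.207). Col4a6 was 4.41 to 8.77 in BC74C against 4.38 to 5.75, a difference of 1.14 (SE 0.44, limma adjusted p = 0.498) carried by the 5 tumours named above. Col6a1 was 5.30 to 10.27 against 5.48 to 7.86, a difference of 1.06 (SE 0.53, limma adjusted p = 0.750). The vessel-type chains Col4a1 and Col4a2 had lower means in BC74C, by -0.78 and -0.93 (limma adjusted p = 0.641 and 0.388), with overlapping values.

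**Figure D4:**
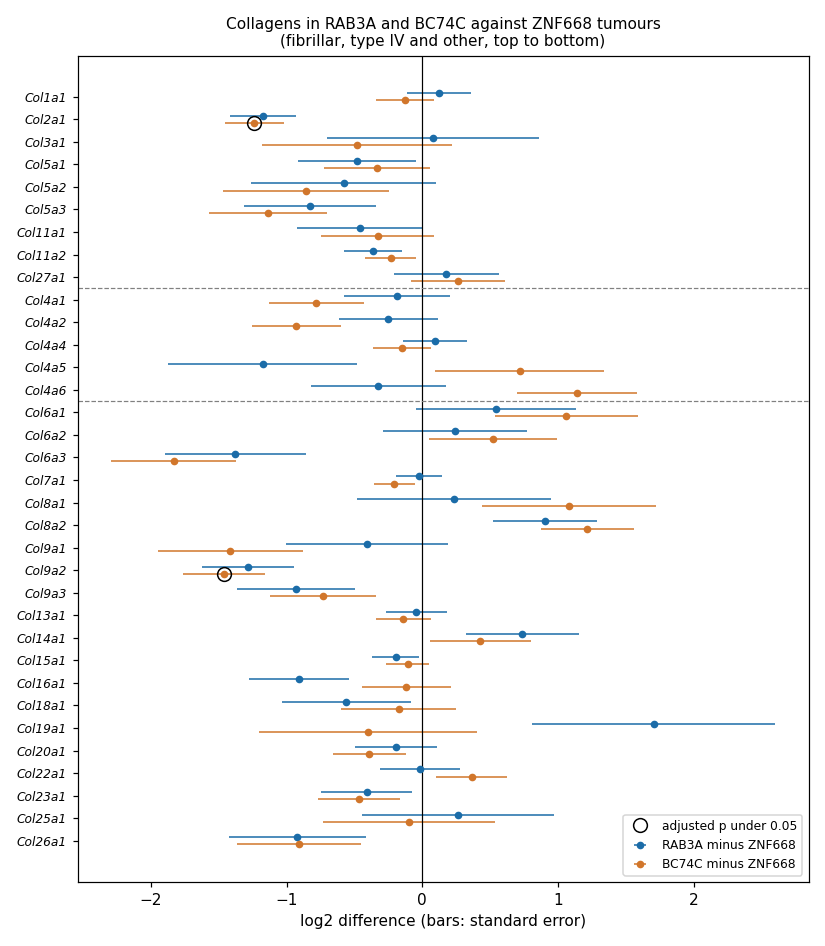
Log2 difference of each tested collagen in RAB3A (blue) and BC74C (orange) relative to ZNF668 tumours, with standard error bars, from 1 limma fit; rings mark an adjusted p under 0.05. Only Col2a1 (-1.24) and Col9a2 (-1.46) in BC74C are ringed; both comparisons use the same ZNF668 tumours.

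Between RAB3A and ZNF668 tumours, 0 of 34 members passed (limma adjusted), against 0.0757% of all genes tested. At an unadjusted p under 0.05 there were 6, or 17.6% against 9.21% of all genes. Col2a1 was below 3.76 in 4 of 6 RAB3A tumours and on their average, so here too only the ZNF668 side brought it into the test. Its difference as measured was -1.18 (SE 0.24, limma adjusted p = 0.0636), and no RAB3A tumour reached the ZNF668 mean of 4.78. Without RAB3A replicate 6, ZNF668 replicate 7 or ZNF668 replicate 9 it passed (limma adjusted p = 0.0345, 0.0479 and 0.0307). Col9a2 differed by -1.29 (SE 0.34, limma adjusted p = 0.267) and passed without RAB3A replicate 6, at -1.58 (limma adjusted p = 0.0268). That tumour, labelled ependymoma, had a Col9a2 value of 6.05, a Col6a3 value of 8.91 and a Col9a1 value of 8.77, each the highest of its class gene.

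Col6a3 differed by -1.38 (SE 0.52, limma adjusted p = 0.485) between RAB3A and ZNF668. On the side of higher means in RAB3A stood Col8a2, at 0.90 (SE 0.38, limma adjusted p = 0.525), with all 6 RAB3A tumours above the ZNF668 mean. Col19a1 was 3.56 to 11.16 in RAB3A (median 6.53) and 3.68 to 8.77 in ZNF668 (median 4.61), a difference of 1.70 (SE 0.90, limma adjusted p = 0.545), which was 0.87 without RAB3A replicate 3. Col14a1, a FACIT collagen, differed by 0.74 (SE 0.42, limma adjusted p = 0.559), and by 0.39 without RAB3A replicate 2. Since this comparison and the preceding one share the ZNF668 tumours, their likeness for Col2a1, Col9a2 and Col6a3 is not independent.

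Between RAB3A and BC74C tumours, 0 of 34 members passed (limma adjusted), as did 0% of all genes tested, and 4 had an unadjusted p under 0.05, or 11.8% against 8.21%. The pair Col4a5 and Col4a6 had the lowest moderated t of the members, with differences of -1.89 (SE 0.70, limma adjusted p = 0.449) and -1.47 (SE 0.50, limma adjusted p = 0.412). For Col4a6 none of the 6 RAB3A tumours, at 4.12 to 5.25, reached the BC74C mean of 6.08. The groups overlapped all the same, since BC74C replicates 3, 5, 7 and 8, at 4.41 to 4.89, lay within the RAB3A range. Col16a1, a FACIT collagen, differed by -0.79 (SE 0.37, limma adjusted p = 0.585). Col19a1 differed by 2.10 (SE 0.90, limma adjusted p = 0.528), Col4a2 by 0.68 (SE 0.37, limma adjusted p = 0.639) and Col9a1 by 1.01 (SE 0.60, limma adjusted p = 0.662). Without RAB3A replicate 3 the Col19a1 difference was 1.27 and that of Col9a1 0.63, and without RAB3A replicate 6 that of Col9a1 was 0.59.

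Between tumour labels, no collagen was called for HGG against ependymoma. All ependymoma-labelled tumours of BC74C and ZNF668 have elw titles, while HGG-labelled BC74C replicate 9 and ZNF668 replicate 8 have mmr titles. Label and title prefix are thus partly confounded, here and in the difference of HGG effects below. With class gene as a covariate, 0 of 34 members passed (limma adjusted; 0% of all genes tested), and 0 had an unadjusted p under 0.05 against 1.73% of all genes. By moderated t, the highest members were Col9a1, with a difference of 1.24 (SE 0.61), Col9a2, at 0.51 (SE 0.32), and Col23a1, a transmembrane collagen, at 0.60 (SE 0.39). The lowest by moderated t were Col5a3, at -0.96 (SE 0.49), Col13a1, at -0.30 (SE 0.25), and Col5a2, at -0.92 (SE 0.81); the limma adjusted p was 1.0 for these 6. Single tumours set much of these sizes. Without BC74C replicate 9, Col9a1 differed by 0.63, Col23a1 by 0.0982 and Col5a2 by -0.45. Without BC74C replicate 7, Col5a3 differed by -0.51 and Col13a1 by -0.17. Without ZNF668 replicate 2, Col9a2 differed by 0.32 and Col23a1 by 0.94, and without ZNF668 replicate 8 Col5a2 differed by -1.43.

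Within the class genes, several collagens had label differences of opposite sign. In BC74C tumours, Col3a1 was 4.62 and 4.27 in the 2 labelled HGG and 5.44 to 8.48 in the 6 labelled ependymoma. In ZNF668 tumours it was 7.75 and 9.36 in the 2 labelled HGG and 5.63 to 6.38 in the 3 labelled ependymoma. The HGG tumours were thus the lowest in one class gene and the highest in the other. The HGG effect differed by -5.37 between BC74C and ZNF668 (SE 1.20, limma adjusted p = 0.591; 13 tumours). No collagen passed this test, and 0% of all genes tested did. In simulated data the test found only 39% of changes of 2 on the log2 scale.

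Col1a1 and Col8a1 had the same arrangement without overlap, so 3 members did, against 0.635% of all genes tested; the reverse arrangement was found for 0 members and 0.257% of all genes tested. Col1a1 was 3.73 and 3.72 in BC74C tumours labelled HGG against 3.86 to 5.03, and 4.52 and 5.32 in ZNF668 tumours labelled HGG against 3.88 to 4.04. Its HGG effect differed by -1.57 (SE 0.45, limma adjusted p = 0.591). Both of its BC74C values for HGG lay below 3.76, the level under which genes were left out. Col8a1 was 4.49 and 4.10 against 4.54 to 9.34 in BC74C, and 4.99 and 6.74 against 4.16 to 4.74 in ZNF668. Col4a1 was 7.12 and 7.37 against 7.25 to 9.91 in BC74C, which overlap, and 9.67 and 9.71 against 7.89 to 8.56 in ZNF668. Its difference of effects was -2.69 (SE 0.78, limma adjusted p = 0.591).

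**Figure D5:**
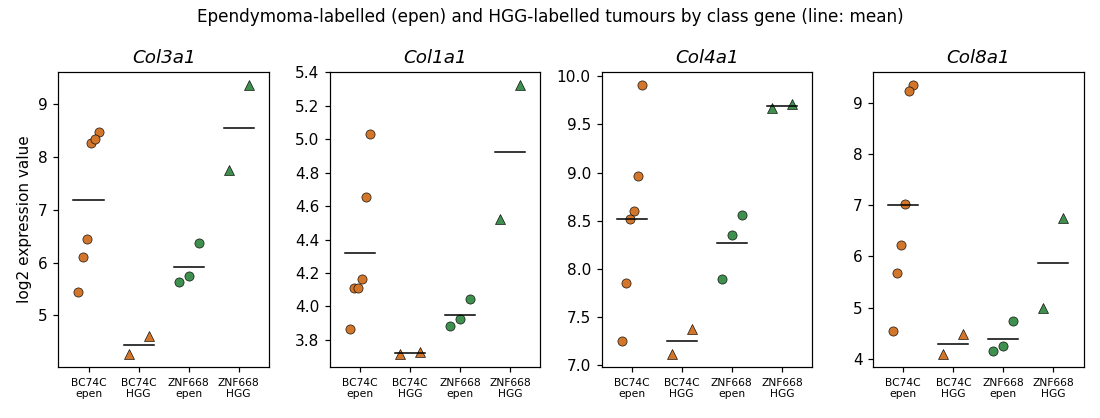
Log2 values of Col3a1, Col1a1, Col4a1 and Col8a1 in ependymoma-labelled (circles) and HGG-labelled (triangles) tumours of BC74C and ZNF668, with lines at the means. Each HGG group has 2 tumours: for Col3a1 they lie below all 6 ependymoma tumours in BC74C (4.27 and 4.62) and above all 3 in ZNF668 (7.75 and 9.36).

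Of the 34 members, 31 had a negative difference of HGG effects, with a median of -0.87 against -0.01 over all genes tested. At an unadjusted p under 0.05 there were 9, or 26.5% against 8.16% of all genes. Of these, 7 were negative (5.48% of all genes), namely Col3a1, Col1a1, Col2a1, Col4a1, Col4a2, Col8a1 and Col26a1. Both Col2a1 means in BC74C lay under 3.76, the filter level, at 3.39 for HGG and 3.56 for ependymoma. Col2a1 thus entered this test only through the ZNF668 tumours. The other 2 of the 9 were positive (2.69% of all genes). The positive ones were the transmembrane collagens Col25a1, at 3.82 (SE 1.53), and Col23a1, at 1.54 (SE 0.66), which was 0.85 without BC74C replicate 9. The remaining tested transmembrane collagen, Col13a1, was negative, at -0.28. Both positive genes have a further probe set above the filter level that followed the chosen one less closely (r = 0.42 for Col25a1, 0.78 for Col23a1). Col27a1, a fibrillar collagen, was the third positive member, at 0.92 (SE 0.90); it was -0.0548 without BC74C replicate 9 and 1.89 without BC74C replicate 7. Lists of other cell markers had these values in the same contrast. All 9 proliferation genes were negative (median -3.03), as were 11 of 14 endothelial genes (median -0.96). Of the neuron genes, 12 of 13 were positive (median 2.52). Fibroblast and meninges genes had 7 positive and 5 negative (median 0.16). Also negative were 5 of 6 pericyte and smooth muscle genes (median -0.95) and 5 of 6 oligodendrocyte progenitor genes (-0.71). Choroid plexus genes were negative in 4 of 6 (-0.56). Positive were 7 of 10 microglia and macrophage genes (median 0.91) and 6 of 7 oligodendrocyte genes (0.84). Ependymal genes were positive in 5 of 7 (1.02) and astrocyte genes in 5 of 8 (0.25). The proliferation list's mean was 6.28 and 7.68 in the HGG tumours of BC74C and 8.99 and 9.47 in those of ZNF668; the neuron list's was 9.89 and 7.09 against 6.46 and 7.02. The part of any of these lists in the collagen values was not tested.

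The machinery around collagen was examined through 4 lists: synthesis and crosslinking (22 of 29 genes tested), receptors (9 of 11), degradation (9 of 15) and matrix partners (19 of 23). No gene of any list was called in any of the 5 comparisons (limma adjusted). Between BC74C and ZNF668 the smallest adjusted p belonged to P4ha3, a subunit of the prolyl hydroxylase that stabilises the helix, at -0.85 (SE 0.22, limma adjusted p = 0.128). At an unadjusted p under 0.05 that comparison had 1 of 22 synthesis genes (4.55%), 1 of 9 receptor genes (11.1%), 3 of 9 degradation genes (33.3%) and 2 of 19 matrix partners (10.5%), against 6.88% of all genes tested. The share of the synthesis list was below the share over all genes, and the others are counts of 1 to 3 genes. Mrc2, an endocytic collagen receptor, differed by 1.11 between BC74C and ZNF668 (SE 0.47, limma adjusted p = 0.590) and by -1.90 between RAB3A and BC74C (SE 0.53, limma adjusted p = 0.325). Mmp14, a membrane-bound collagenase, differed by -1.15 in BC74C and -1.45 in RAB3A relative to ZNF668 (limma adjusted p = 0.418 and 0.451).

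Relative to ZNF668, the remaining extremes by moderated t in BC74C were Itga1, a collagen-binding integrin, at -0.56, P3h3, a prolyl hydroxylase, at 0.34, Fap, a stromal protease, at 0.63, Aspn, a small proteoglycan, at -0.49, and Lama1, a laminin chain, at 0.92. In RAB3A they were Serpinh1, at -2.03 (SE 0.61, limma adjusted p = 0.420), Lox, which crosslinks collagen, at 0.41, Itga1, at -0.59, Ddr2, a collagen-binding kinase, at -0.17, Ctsk, a collagen-degrading cathepsin, at 0.52, Lamb1, a laminin chain, at -1.35, and Fmod, a small proteoglycan, at 0.85. All 9 receptor genes and 19 of 22 synthesis genes had lower means in RAB3A than in ZNF668. Over all genes tested, 7429 of 13218 did.

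Between RAB3A and BC74C the extremes by moderated t were P3h3, at -0.68, P4ha3, at 0.36, Itga10, at 0.09, Timp1, at -0.67, Ctsk, at 0.75, Lamb2, at -1.29, and Fmod, at 0.69. Between HGG and ependymoma they were P4ha2, at -0.86, Colgalt2, at 0.75, Itga10, at -0.39, Itga1, at 0.86, Timp3, at -0.38, Mmp9, at 0.62, Sparc, at -0.54, and Bgn, at 0.71. For the difference of HGG effects they were P3h1, at -1.14, Lox, at 2.26, Ddr2, at -2.74, Lair1, at 1.0, Mmp9, at -1.65, Timp2, at 0.96, Nid1, a basement membrane linker, at -3.15, and Prelp, at 2.11. None of these passed.

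Members differed in which list they ran with over the 24 tumours, given as descriptions. Col4a5 ran with the mean of the synthesis list (r = 0.82) and of the receptor list (r = 0.81), whereas Col4a1 gave 0.31 and 0.32. Col4a1 ran with the pericyte and smooth muscle list (r = 0.65), and Col25a1 with the mature neuron list (r = 0.77). The latter value is for the chosen Col25a1 probe set, with which the further one gave r = 0.42. Ependymal markers, against which the ependymoma label can be read, had a list mean of 4.31 to 6.19 in ependymoma-labelled tumours and 4.49 to 5.53 in HGG-labelled ones, so they did not separate the labels. The mean of the astrocyte list ran from 7.24 in ZNF668 replicate 9 to 10.41 in BC74C replicate 2.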

How the data were processed

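Per the labels' protocols, RNA came from a Trizol extraction and biotin labelling followed the Affymetrix protocol. The authors deposited 1 log2 value per probe set for 45141 probe sets; that the scale is log2 was read from the values, which lie between 2.40 and 13.85. The submitters' processing notes name Partek 6.6; the background correction and normalization are not given in the sources used here, and equalising arrays can mask a shift that most genes share. Array medians lay between 4.98 and 5.20. Precision is limited by how many arrays there are.

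The 104 control probe sets, and those with several symbols or none (551 and 15588), were left out. The probe set with the highest mean stood for each gene, and 13218 of 17097 genes passed the 30th percentile. Gene symbols are those of the platform annotation. Differences were tested with limma 3.58.1 (lmFit, eBayes with trend; R 4.3.3), in both directions; p-values were adjusted by Benjamini-Hochberg over all of them and called under 0.05. The class gene comparisons came from 1 model of 24 tumours, HGG minus ependymoma from 15 tumours with a class gene term. The difference of HGG effects used 13. Correlations used 100000 permutations, or all orders for 6 tumours, adjusted over 12 relations.

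For each comparison, the text names members called and the 3 highest and 3 lowest by moderated t, and 1 of each from each of the 4 lists around collagen; over all tumours, the 5 with the largest SD and those in the 12 relations. Others are named from their values. Members, lists and relations were chosen with earlier results of these data known. Col6a6 and Col28a1 have no single-symbol probe set here. The fit was tested on simulated data. Alternatives covered the filter, probe sets, scaling, the trend, array weights, title prefix, marker covariates, subsets of tumours and each tumour left out.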

Additional observations from a re-analysis of the deposited data

Results flagged for a closer look

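In 136 sets examined, each 1 member in 1 group of 4 to 10 tumours, 13 values stood far from the rest by Dixon's test. By chance about 6.8 would (about 1 in 20 sets). The sets are not independent, since the HGG-labelled tumours also belong to the BC74C and ZNF668 groups. In RAB3A tumours, Col8a1 was 6.97 in replicate 5, with the others at 4.71 to 5.27. In BC74C tumours, Col4a2 was 9.16 in replicate 6 (others 6.78 to 7.78), Col22a1 was 6.46 in replicate 1 (others 3.55 to 4.26), Col23a1 was 6.63 in replicate 9 (others 4.15 to 5.23), and Col9a1 was 8.09 in replicate 9 (others 4.67 to 6.40).

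In ZNF668 tumours, Col11a2 was 5.26 in replicate 2 (others 3.23 to 4.11) and Col20a1 was 6.80 in the same tumour (others 3.83 to 4.73). The Col11a2 mean over all tumours was 3.77, just above the filter level, and only 9 tumours were above that level. Without ZNF668 replicate 2 the mean would lie below it, so Col11a2 was examined here only because that tumour was high. ZNF668 replicate 8 stood out for Col1a1, at 5.32 (others 3.88 to 4.52), and for Col15a1, at 5.08 (others 3.84 to 4.38). Among the 4 tumours labelled HGG, Col11a1 was 7.13 in ZNF668 replicate 8 (others 5.49 to 5.63) and Col27a1 was 8.55 in BC74C replicate 9 (others 6.54 to 6.83). In these 4, Col20a1 was again 6.80 in ZNF668 replicate 2, with the others at 4.25. Col18a1 was the only low one, at 4.67 in BC74C replicate 7 (others 6.96 to 7.10).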

How the results depend on the processing

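The members called between BC74C and ZNF668 went from 2 to 0 with a 50th percentile filter, which leaves both genes untested, to 0 among ependymoma-labelled tumours, and to 0 with the oligodendrocyte progenitor list as a covariate, which was added after the data were seen. Leaving out each tumour gave 1 to 3 there and 0 to 2 for RAB3A minus ZNF668 (2 without RAB3A replicate 6; 1 without ZNF668 replicate 7 or 9). The 3 other comparisons kept a count of 0 in all settings run. Of 966 member differences under alternatives, 5 changed sign: within mmr tumours Col19a1 (-1.61) and Col6a3 (0.42) for RAB3A minus ZNF668, within elw tumours Col23a1 (-0.0304) for HGG minus ependymoma, and, for the difference of HGG effects, Col27a1 within elw tumours (-0.20) and without BC74C replicate 9 (-0.0548; the range over all left-out tumours reached 1.89). The members in the top 10% by SD numbered 11 to 14. No paired analysis was possible because replicate numbers follow the order of deposit.

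Among correlations, Col2a1 with Col11a1 turned to -0.18 in elw tumours, and Col1a1 with Col1a2 passed, at 0.42, with arrays centred. These no longer passed. In mmr tumours: Col4a1 with Col4a2 (0.97), Col5a1 with Col5a2 (0.37), Col6a1 with Col6a2 (0.40), Col1a1 with Col3a1 (0.92), Col1a1 with Col4a1 (0.36), Col1a1 with Lum (0.84), Col4a1 with Pdgfrb (0.59) and Pecam1 (0.65), and Col1a1 with Snap25 (-0.0293). In elw tumours: Col5a1 with Col5a2 (0.51), Col1a1 with Lum (0.45), and Col4a1 with Pdgfrb (0.49) and Pecam1 (0.33). Without the 2 farthest tumours: Col5a1 with Col5a2 (0.38), Col1a1 with Lum (0.46) and Col4a1 with Pecam1 (0.32). With the mean of a gene's probe sets: Col5a1 with Col5a2 (0.39) and Col4a1 with Pdgfrb (0.44) and Pecam1 (0.42). The subsets hold fewer tumours; the other causes were not tested.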
